A study of Capitella teleta with 10 samples.

Results

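Dense arrays are stretches of the Capitella teleta genome in which open chromatin regions follow each other closely. Consensus peaks were ordered along each scaffold, and neighbours with a gap of at most 2000 bp were joined. Runs of at least 5 peaks were kept as arrays, and every peak in them that was wider than 300 bp and narrower than 2000 bp is called an array peak. This gave 3141 array peaks in 644 arrays, 6.77% of the 46409 consensus peaks. The question was whether peaks of one array opened and closed together through development.

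Accessibility was measured by ATAC-seq, in which the Tn5 transposase cuts and tags open DNA, in whole embryos and larvae of the annelid Capitella teleta. The 10 libraries comprised 5 stages with 2 libraries each: 64-cell embryos (about 500 animals pooled per library), gastrulae (200), stage 4tt larvae (120), stage 5 larvae (90) and stage 8 larvae (50), each of about 50000 cells. No animal was treated or genetically altered, and the growth protocol in the labels describes another annelid, Owenia fusiformis. Source names fell into 2 sets, 1 for the 3 earlier stages and 1 for stages 5 and 8. The study sequenced these sets at different sites, on different instruments and with different read lengths before trimming. Development from stage 4tt to stage 5 and this change of sequencing set therefore cannot be told apart. The study describes 2 biological replicates, and the labels do not say whether the 2 libraries of a stage came from separate cultures. The p-values therefore rest only on the spread between such libraries, pooled over all stages. As whole animals were used, a change in the proportion of a cell type and a change within its cells cannot be told apart.

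Open chromatin marks promoters, enhancers and other cis-regulatory elements, where transcription factors displace or exclude nucleosomes. Several such elements often lie near one gene, each active in its own tissue or at its own time, so neighbouring elements may follow one course or separate courses. Capitella teleta has a non-feeding larva, and the study reports that its trunk begins to develop after gastrulation.

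The arrays lay on 396 of the 5551 scaffolds with consensus peaks, with at most 6 on one scaffold, scaffold 2. Most were short: 343 held 5 peaks, 155 held 6, 81 held 7, 45 held 8 or 9, and 20 held 10 or more, with 15 in the largest. The median span was 9814 bp (3541 to 31920 bp), and peaks covered a median of 53.3% of it. Between peaks of an array the median gap was 957.5 bp, against 2857.5 bp over the whole series. The joining rule caps gaps within arrays at 2000 bp, so a lower median there follows from the rule. The width limits left out 673 of the 3814 peaks in arrays, 408 of them 300 bp or narrower and 265 of them 2000 bp or wider. In 217 arrays every peak was an array peak, and 625 arrays held 3 or more array peaks (median 5, from 1 to 14). Just inside the limits, the widest joined gap was 2000 bp and 32 array peaks were at most 310 bp wide, and the narrowest gap left unjoined was 1 bp wider. The assembly that the ATAC-seq reads were mapped to is not named in the sources used here, although the study took its Capitella teleta assembly for gene annotation from Ensembl Metazoa. Gene positions on these scaffolds were not used here, so arrays are named by scaffold and position only.

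Array peaks had more signal than other peaks of the same width range at each stage. The values are reads per peak multiplied by the normalization factors of the authors, without division by width. At the 64-cell stage the median array peak had values of 508 and 514 in the 2 libraries. In gastrulae these medians were 539 and 532, in stage 4tt larvae 531 and 527, in stage 5 larvae 541 and 536, and in stage 8 larvae 492 and 505. The other peaks within the width limits had medians of 338 and 338, 268 and 252, 281 and 282, 349 and 349, and 357 and 376 at the same stages. Libraries of one stage differed little, and the array peaks lay above the rest in all 10 libraries. Array peaks were not wider, with a median of 798 bp against 839.5 bp for the rest. The reads in array peaks, recovered from the deposited values and approximate, were 924753 to 4137033 per library, and the median array peak held 218 to 952 of them. Of the array peaks, 4 were listed at 0 in every library, as were 390 of all consensus peaks, although 2 to 8 of the peak lists called them.

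The peak lists showed another side. In a list, the peak caller compares each region with its local background and reports a fold enrichment. Array peaks that were called had median fold enrichments of 2.09 to 2.65 over the 10 libraries, against 2.53 to 3.74 for the other peaks within the width limits, and the array value was lower in each library. Counting an overlap of at least 50% of either region, 40.4% and 45.6% of array peaks were called in the 64-cell libraries, against 48.2% and 53.3% of the rest. At stage 8 these shares were 74.0% and 71.6% of array peaks, against 85.9% and 84.0% of the rest. Array peaks were called less often than the rest in 8 of the 10 libraries, and in the 2 gastrula libraries slightly more often (60.7% and 61.5%, against 60.4% and 60.3%). Only 21.5% of array peaks were called in both libraries of all 5 stages, against 33.1% of the rest. Array peaks thus had higher signal and lower enrichment over their surroundings. No test was made of either difference, since peaks of one library are not replicates. By the rule, every array peak has other peaks close by, and these can raise its local background. Enrichment and calling are thus not independent of the rule, and this part was not separated.

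From the 64-cell embryo to the gastrula, array peaks opened more often than consensus peaks at large. A peak was called opened or closed where its change in log2(value + 1) passed limma's test at an adjusted p under 0.05 over all consensus peaks. At this step 1209 array peaks opened (38.5%, against 27.1% of all consensus peaks) and 1053 closed (33.5%, against 36.3%). The median log2 change was 0.06 for array peaks and -0.08 for all peaks. The excess of opening stood in each of 4 classes of mean signal, split at the quartiles of all consensus peaks. In the third class 35.1% of array peaks opened, against 21.3% of all other consensus peaks. In these classes the other peaks are of any width. The share opened among the changed array peaks was 53.4%, and other scalings gave 60.6% (TMM), 58.8% (quantile) and 71.3% (median centring). Here and at the later steps, other scalings are given for array peaks only. They do not show whether a difference from all consensus peaks held.

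From the gastrula to stage 4tt, the fewest array peaks changed. A total of 678 opened (21.6%, against 21.7% of all consensus peaks) and 699 closed (22.3%, against 14.7%). The median log2 change was 0.01 for array peaks and 0.05 for all peaks. From the lowest to the highest signal class, 26.8%, 12.5%, 22.0% and 27.8% of array peaks closed. All other consensus peaks gave 15.7%, 11.9%, 13.6% and 15.4%, so the second class showed almost no excess. Within classes array peaks opened less often, with 9.15%, 23.0%, 21.6% and 22.4%, against 10.1%, 25.1%, 24.8% and 28.0%. The share opened among changed array peaks was 49.2%, against 40.4% (TMM), 41.9% (quantile) and 35.8% (median centring) with other scalings.

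From stage 4tt to stage 5, also the step at which the sequencing set changed, 1156 array peaks opened (36.8%, against 39.8% of all consensus peaks) and 812 closed (25.9%, against 20.0%). The direction here depended on the scaling. The median over all peaks was 0.23 on the log2 scale and that of array peaks 0.11, which is -0.12 relative to all peaks. The share opened among changed array peaks was 58.7% on the authors' scale, 39.4% with TMM, 46.9% with quantile normalization and 31.6% with median centring. In the highest signal class 29.2% of array peaks closed, against 34.8% of all other consensus peaks. The excess of closing over all peaks thus did not stand at every level.

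From stage 5 to stage 8, the array peaks that changed mainly closed. A total of 510 opened (16.2%, against 15.3% of all consensus peaks) and 1044 closed (33.2%, against 17.4%). The median log2 change was -0.11 for array peaks and 0.00 for all peaks. Closing exceeded that of all other consensus peaks, of any width, in every signal class. It was 8.50% against 6.30% in the lowest, 12.5% against 9.21%, 29.9% against 17.9%, and 52.8% against 32.9% in the highest. It was also more frequent in longer runs, with 28.9% of array peaks closed in runs of 5 peaks, 29.1% in runs of 6, 38.4% in runs of 7, 47.5% in runs of 8 or 9 and 46.5% in runs of 10 or more. In runs of 4 peaks, just below the limit, 22.2% closed. Runs of 10 or more held only 187 array peaks. These shares were not split by signal, and its part in them was not tested. Within arrays, 35.9% of interior peaks closed, against 28.1% of the first and last peaks. This contrast was not split by run length, and longer runs hold a larger share of interior peaks. The opened share of changed array peaks, 32.8%, lay between 27.5% and 33.9% under the other scalings.

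**Figure D1:**
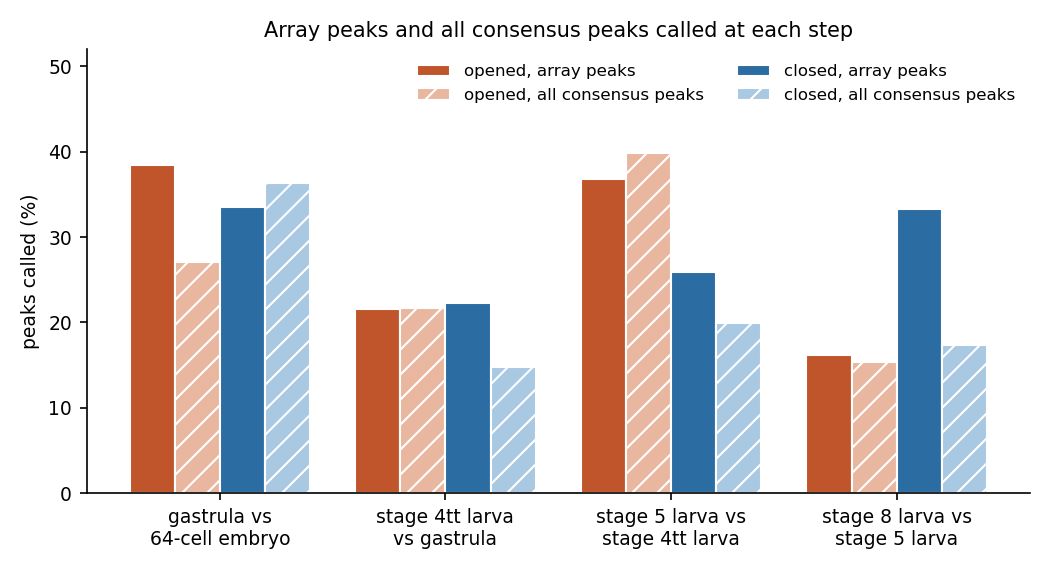
Percentage of peaks called opened (orange) or closed (blue) at each of the 4 steps, for the 3141 array peaks (solid bars) and all 46409 consensus peaks (hatched bars). Closing from stage 5 to stage 8 was called in 33.2% of array peaks and 17.4% of all peaks.

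Array peaks were called at more steps than consensus peaks at large. Of the array peaks, 177 (5.64%, against 11.7% of all consensus peaks) were called at no step, 501 (15.95%, against 22.5%) at 1, 1125 (35.8%, against 35.0%) at 2, 942 (30.0%, against 23.3%) at 3 and 396 (12.6%, against 7.56%) at all 4. Array peaks also had higher signal, as given above, and its part in these shares was not tested. The most frequent course was closing into the gastrula and opening into stage 5 with no other call, in 272 array peaks (8.66%), and it was more frequent in the whole series (12.1%). The reverse, opening into the gastrula and closing into stage 5 with no other call, was seen in 109 (3.47%, against 3.74% of all consensus peaks). Another 129 (4.11%, against 2.07%) opened into the gastrula and closed into stage 5 and again into stage 8. By mean signal, 19.1%, 23.7%, 14.4%, 17.0% and 25.8% of array peaks were highest at the 64-cell stage, gastrula, stage 4tt, stage 5 and stage 8. The rest within the width limits gave 17.2%, 17.2%, 16.6%, 16.3% and 32.7% in the same order, so array peaks were more often highest in the gastrula and less often at stage 8.

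Neighbouring peaks of an array mostly changed in the same direction where both were called. Arrays held 2140 pairs of directly adjacent array peaks. From the 64-cell embryo to the gastrula both peaks were called in 1141 of them, and 71.3% of these went the same way. The same-direction share was 77.4% of 455 pairs from the gastrula to stage 4tt, 65.4% of 871 from stage 4tt to stage 5, and 88.1% of 658 from stage 5 to stage 8. Among all possible pairs of called array peaks, whatever their array, it would be 50.2%, 50.0%, 51.5% and 55.9%. Neighbours exceeded these shares by 21.2, 27.4, 13.8 and 32.2 percentage points, counted over the called peaks that have an array neighbour.

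This likeness was not particular to dense arrays. Neighbours in runs of 2 to 4 peaks shared the direction in 75.8%, 81.3%, 73.2% and 84.0% of pairs at the 4 steps, which was 22.7, 28.7, 16.7 and 34.0 points above all pairs of called peaks of that kind. Neighbours more than 10000 bp apart still exceeded theirs, by 12.5, 11.6, 12.1 and 24.1 points. Array neighbours thus stood slightly less above their own background than neighbours in short runs at all 4 steps and, except from stage 4tt to stage 5, farther above it than neighbours over 2000 bp apart. At that step array neighbours had the lowest share of the 5 kinds of neighbour, and their excess lay below that of neighbours over 2000 and up to 5000 bp apart (15.6 points). The cause was not tested, and no test was made between these sets, because adjacent pairs share peaks and libraries.

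**Figure D2:**
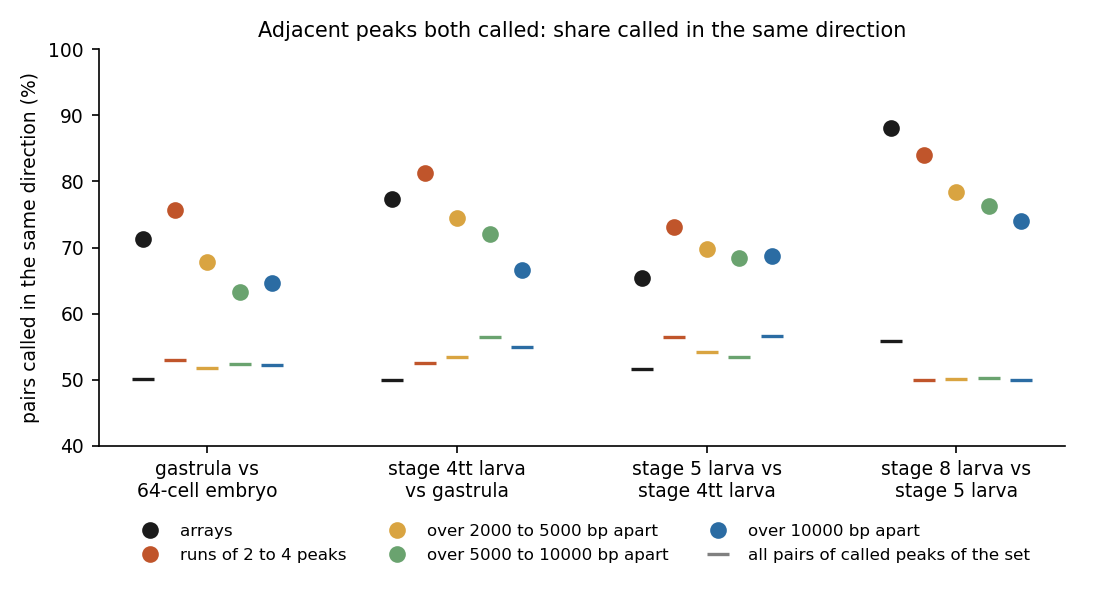
Share of adjacent peak pairs, both called, that were called in the same direction at each of the 4 steps (dots), by kind of neighbour, and the share over all pairs of called peaks of that kind (dashes). For arrays the dots stand at 71.3%, 77.4%, 65.4% and 88.1%, all above their dashes.

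Along an array the likeness fell with each place into the gastrula, but not at every step. Into the gastrula, the same-direction share was 69.8% for successive array peaks, 64.0% for the next but one, 60.3% at 3 places and 57.3% at 4 places. From the gastrula to stage 4tt it was 76.6%, 70.6%, 65.5% and 69.0% at the same distances, and from stage 5 to stage 8 it was 87.3%, 83.2%, 83.1% and 81.3%. From stage 4tt to stage 5 it was 65.1%, 62.0%, 61.3% and 66.5%, as high at 4 places as between successive peaks. By gap in bp, the shares followed no even course. Pairs at most 250 bp apart shared the direction in 78.6%, 80.0%, 77.9% and 89.6% of cases at the 4 steps, and pairs 251 to 500 bp apart in 67.8%, 91.9%, 66.2% and 85.3%. Pairs 501 to 1000 bp apart gave 73.2%, 73.4%, 62.0% and 91.2%, pairs 1001 to 1500 bp apart 68.3%, 76.1%, 59.3% and 86.9%, and pairs 1501 to 2000 bp apart 71.4%, 73.6%, 69.5% and 86.3%. The closest pairs had the highest share at the first step and from stage 4tt to stage 5, though not at the other 2, and each class held 50 to 355 called pairs. The closest pairs can share sequenced fragments, and that part was not separated.

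As a description over all 2140 adjacent pairs, called or not, the log2 changes of neighbours correlated with r of 0.33, 0.31, 0.22 and 0.46 at the 4 steps. The points share libraries, and each inner peak enters 2 pairs. With the change of one peak taken from replicate 1 and that of its neighbour from replicate 2, r was 0.32, 0.27, 0.21 and 0.45, nearly as high. For scale, the change of the same array peak in replicate 1 against replicate 2 gave r of 0.91, 0.78, 0.88 and 0.94. The intraclass correlation, the share of the variance of log2 change that lay between arrays, was 0.25, 0.24, 0.20 and 0.40. Most of the variation among array peaks therefore lay within arrays at each step.

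In few arrays were all array peaks called in one direction. Of the 625 arrays with 3 or more array peaks, 31 had all of them opened and 27 all closed in the gastrula relative to the 64-cell embryo, while 352 held both opened and closed peaks. From the gastrula to stage 4tt, 2 arrays opened and 7 closed throughout, and 170 went both ways. From stage 4tt to stage 5 there were 16, 7 and 313 such arrays. From stage 5 to stage 8 there were 6 and 58, and 125 went both ways. No array peak was called in 3, 60, 10 and 71 arrays at the 4 steps. Arrays whose calls all had one direction, with or without uncalled array peaks, numbered 270, 395, 302 and 429. An array with 1 call is among them, so these numbers and those going both ways depend on how many array peaks were called. The called share of array peaks was 72.0%, 43.8%, 62.7% and 49.5% at the 4 steps. No other set of peaks was counted in this way. Stages of maximum were likewise mixed: adjacent array peaks were highest at the same stage in 32.1% of pairs, against 20.9% over all pairs of array peaks, 37.3% for neighbours in runs of 2 to 4 and 30.5% for those over 10000 bp apart. All array peaks shared the stage of maximum in 29 of the 625 arrays. The mean pairwise r of the profiles over the 5 stages had a median of 0.29 over arrays (10% to 90%: -0.11 to 0.76), was below 0 in 138 arrays and above 0.8 in 42.

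**Figure D3:**
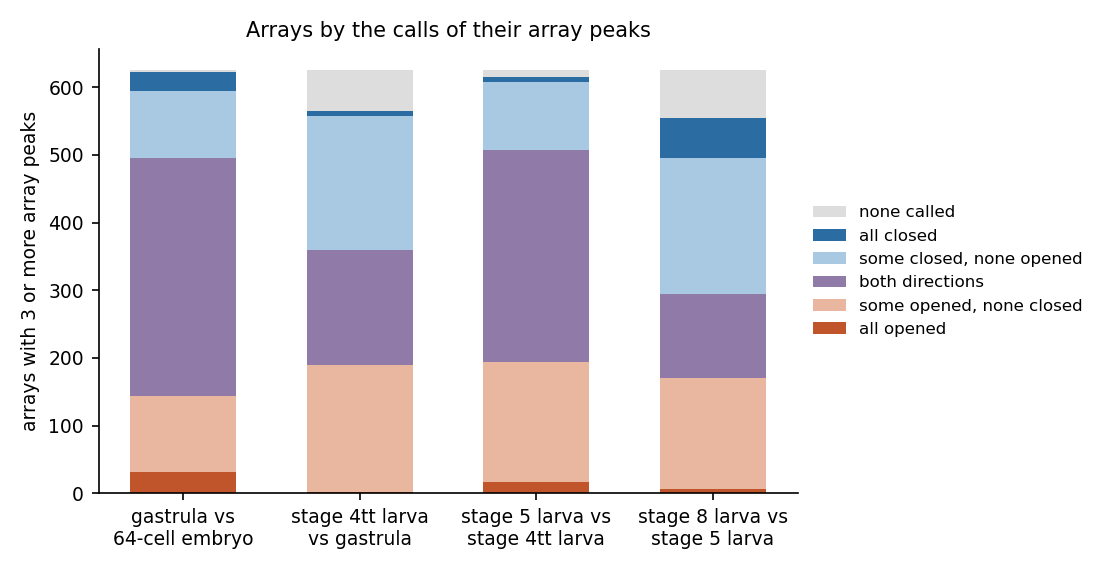
Number of arrays with 3 or more array peaks (625) by the calls of their array peaks at each of the 4 steps. Arrays with both opened and closed peaks number 352, 170, 313 and 125, and arrays closed throughout number 58 at the last step.

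Profiles were ranked among arrays whose mean SD of profiles was at or above the median of arrays. Of these, the array with the most alike profiles lay on scaffold 640, from 117131 to 127745, and held 5 array peaks in 10615 bp. Its mean pairwise r was 0.97. All 5 peaks closed in the gastrula, 4 opened at stage 4tt, all 5 opened at stage 5 and none was called at stage 8. Over the 64-cell, gastrula, stage 4tt, stage 5 and stage 8 libraries, CTEL_peak_37096 had 65.2 and 79.9, 34.2 and 27.5, 25.0 and 61.5, 162 and 123, and 145 and 149. CTEL_peak_37093 had 211 and 192, 108 and 54.9, 135 and 139, 347 and 331, and 301 and 365 in the same order. CTEL_peak_37094 had 199 and 231, 94.7 and 88.6, 185 and 153, 298 and 308, and 324 and 342. In each of them every stage 5 library lay above both stage 4tt libraries. From stage 4tt to stage 5 the log2 changes were 1.82 ± 0.35 for CTEL_peak_37096 (SE, limma adjusted p = 0.000612), 1.30 ± 0.24 for CTEL_peak_37093 (adjusted p = 0.000469) and 0.85 ± 0.16 for CTEL_peak_37094 (adjusted p = 0.000589). Among arrays with 3 or more array peaks, all of them called opened at that step, its median log2 change of 1.30 was the highest.

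An array on scaffold 582, from 83409 to 90243, closed step by step after the gastrula. Its 5 array peaks all closed at stage 4tt (median log2 change -0.91), 4 of them closed at stage 5 and 3 at stage 8. CTEL_peak_34928 had 241 and 211 at stage 4tt, against 792 and 922 in the gastrula (log2 change -1.92 ± 0.19, SE, limma adjusted p = 7.77e-06). CTEL_peak_34929 had 662 and 550 at stage 4tt, against 1069 and 1201 in the gastrula (-0.91 ± 0.13, adjusted p = 0.000129). CTEL_peak_34925, the strongest, had 2327 and 2215 at stage 4tt, against 2824 and 2973 in the gastrula (-0.35 ± 0.07, adjusted p = 0.00152). The libraries of the 2 stages did not overlap in any of the 3 peaks.

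Other arrays also moved in one direction at a step. On scaffold 2694, from 133 to 7817, the 3 array peaks were weak and all opened into the gastrula, with a median log2 change of 2.61. CTEL_peak_18243 had 61.8 and 51.9 in the gastrula, against 7.09 and 5.91 in the 64-cell embryo (log2 change 2.95 ± 0.42, SE, limma adjusted p = 2.86e-05). CTEL_peak_18246 had 111 and 103 in the gastrula, against 23.5 and 11.8 in the 64-cell embryo (2.61 ± 0.36, adjusted p = 2.33e-05). On scaffold 108, from 380825 to 388296, the 4 array peaks all closed into the gastrula (median -1.62) and 3 of them opened again at stage 8. CTEL_peak_1785 had 444 and 412 in the gastrula, against 1409 and 1864 in the 64-cell embryo (-1.92 ± 0.13, adjusted p = 2.18e-08). On scaffold 205, from 147428 to 153778, the 3 array peaks closed into the gastrula (median -1.05) and opened at stage 4tt (median 0.94). CTEL_peak_13042 there had 417 and 411 at stage 4tt, against 234 and 196 in the gastrula (0.95 ± 0.12, adjusted p = 4.72e-05).

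Later steps gave similar examples. On scaffold 294, from 84314 to 92421, the 3 array peaks all closed at stage 5 (median log2 change -0.94) and again at stage 8. CTEL_peak_20037 had 474 and 584 at stage 5, against 1157 and 1040 at stage 4tt (log2 change -1.06 ± 0.12, SE, limma adjusted p = 7.96e-06). On scaffold 25, from 441904 to 452956, the 4 array peaks all closed into the gastrula (median -1.01) and all opened at stage 8 (median 1.11). CTEL_peak_16832 had 493 and 508 at stage 8, against 163 and 184 at stage 5 (1.53 ± 0.18, adjusted p = 1.46e-05), and CTEL_peak_16833 had 175 and 211 at stage 8, against 107 and 114 at stage 5 (0.79 ± 0.19, adjusted p = 0.00609). On scaffold 1137, from 12951 to 22052, the 3 array peaks all closed at stage 8 (median -1.34) after separate courses. CTEL_peak_2755 was highest in the gastrula, with 1748 and 1786, and CTEL_peak_2756 at stage 5, with 1059 and 995. At stage 8 CTEL_peak_2756 had 279 and 288, against those values at stage 5 (-1.85 ± 0.14, adjusted p = 2.18e-07).

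Some runs held only 1 or 2 array peaks, because the others were outside the width limits, and the largest one-way median changes in 5 of the 8 combinations of step and direction came from such runs. On scaffold 119, from 319069 to 327530, both array peaks closed into the gastrula (median log2 change -2.38). CTEL_peak_3506 had 117 and 170 in the gastrula, against 1774 and 2033 in the 64-cell embryo (log2 change -3.74 ± 0.19, SE, limma adjusted p = 2.68e-09). On scaffold 447, from 83455 to 89839, both opened at stage 4tt (median 1.84), and CTEL_peak_29211 had 437 and 488 at stage 4tt, against 94.6 and 77.3 in the gastrula (2.42 ± 0.16, adjusted p = 7.09e-07). On scaffold 579, from 52157 to 67391, both closed at stage 8 (median -1.66). CTEL_peak_34712 had 559 and 516 at stage 8, against 1775 and 1832 at stage 5 (-1.75 ± 0.09, adjusted p = 1.14e-08). The 2 on scaffold 239, from 248155 to 252034, opened at stage 5 (median 1.57) but were weak: CTEL_peak_15894 had 74.6 and 43.8 at stage 5, against 19.4 and 29.8 at stage 4tt (1.21 ± 0.43, adjusted p = 0.0266). The only array peak on scaffold 410, from 94000 to 104685, was CTEL_peak_27500, which had 199 and 217 at stage 4tt, against 403 and 414 in the gastrula (-0.97 ± 0.13, adjusted p = 8.06e-05).

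**Figure D4:**
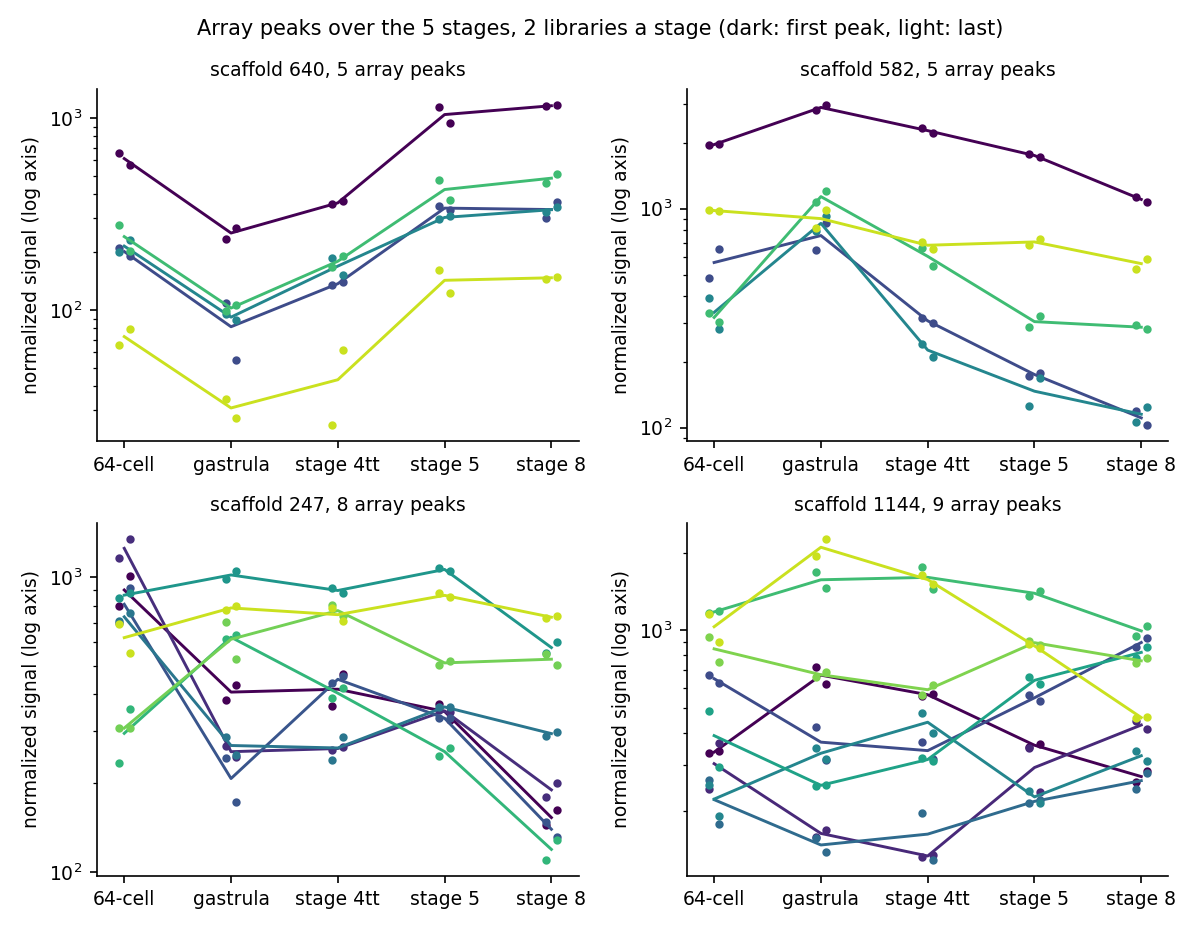
Normalized signal (log axis) of each array peak in 4 arrays over the 5 stages; points are the 2 libraries of a stage and lines join stage means. The 5 peaks on scaffold 640 run in parallel (mean r 0.97), whereas those on scaffold 1144 cross (mean r -0.10).

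Arrays whose peaks went in opposite directions were also found at each step, and in some the 2 directions lay side by side. On scaffold 247, from 275165 to 292504, 4 array peaks closed and 4 opened into the gastrula, and the 4 that closed were the first 4 in order. CTEL_peak_16593 had 267 and 245 in the gastrula, against 1159 and 1342 in the 64-cell embryo (log2 change -2.28 ± 0.13, SE, limma adjusted p = 7.12e-09). CTEL_peak_16597 had 616 and 634 in the gastrula, against 234 and 357 in the 64-cell embryo (1.11 ± 0.18, adjusted p = 8.67e-05). Among those that closed lay CTEL_peak_16592, a peak of 2724 bp and so no array peak, which opened (0.66). From stage 5 to stage 8, 5 array peaks of this array closed and none opened.

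On scaffold 701, from 40619 to 48221, 2 array peaks opened and 2 closed at stage 4tt. CTEL_peak_39058 had 296 and 278 at stage 4tt, against 127 and 123 in the gastrula (log2 change 1.19 ± 0.14, SE, limma adjusted p = 3.25e-05). CTEL_peak_39056 had 45.3 and 55.1 at stage 4tt, against 239 and 195 in the gastrula (-2.09 ± 0.24, adjusted p = 2.33e-05). On scaffold 166, from 158354 to 177549, 4 of 9 array peaks opened and 4 closed at stage 5. CTEL_peak_9095 had 639 and 593 at stage 5, against 363 and 372 at stage 4tt (0.74 ± 0.12, adjusted p = 0.000173), and its direct neighbour CTEL_peak_9094, 789 bp away, had 300 and 331 at stage 5, against 611 and 473 at stage 4tt (-0.77 ± 0.15, adjusted p = 0.000592). On scaffold 1144, from 13803 to 27623, 3 of 9 array peaks opened and 3 closed at stage 8. CTEL_peak_2896 had 862 and 933 at stage 8, against 563 and 534 at stage 5 (0.71 ± 0.14, adjusted p = 0.00137), and CTEL_peak_2902 had 458 and 462 at stage 8, against 886 and 855 at stage 5 (-0.92 ± 0.11, adjusted p = 2.68e-05).

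Among arrays at or above the median profile SD, the least alike profiles were on scaffold 12, from 85283 to 94195. They were those of its 2 array peaks (r = -0.91 over 5 stage means). CTEL_peak_3581 had 832 and 778 at stage 8, its highest stage, and CTEL_peak_3584 had 310 and 259 in the gastrula, its highest. Among such arrays with 3 or more array peaks, the lowest mean r was -0.41, on scaffold 120, from 339708 to 347568. There CTEL_peak_3825 was highest at stage 8 (3160 and 2692), CTEL_peak_3828 in the 64-cell embryo (1046 and 1221), and CTEL_peak_3830 at stage 5 (578 and 548). The gastrula values of CTEL_peak_3830, 543 and 570, overlapped those at stage 5.

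The 3 arrays with the most array peaks were mixed as well. The array on scaffold 123, from 15300 to 47219, spanned 31920 bp with 14 array peaks of 15. Into the gastrula 7 of them closed and 4 opened. CTEL_peak_4139 had 381 and 402 in the gastrula, against 779 and 858 in the 64-cell embryo (log2 change -1.06 ± 0.13, SE, limma adjusted p = 5.64e-06), and its neighbour CTEL_peak_4140, chosen after its values were seen, had 1518 and 1804 in the gastrula, against 634 and 650 in the 64-cell embryo (1.36 ± 0.10, adjusted p = 4.49e-08). At stage 5, 8 opened and 2 closed. By mean signal 9 of the 14 were highest at stage 8. On scaffold 34, from 478065 to 498670, 5 of 12 array peaks opened and 3 closed into the gastrula. CTEL_peak_23344 had 87.9 and 90.0 in the gastrula, against 567 and 692 in the 64-cell embryo (-2.80 ± 0.22, adjusted p = 1.32e-07), whereas CTEL_peak_23349 had 326 and 373 in the gastrula, against 171 and 165 in the 64-cell embryo (1.05 ± 0.15, adjusted p = 2.78e-05). On scaffold 131, from 93203 to 119306, 8 of 11 array peaks closed into the gastrula and 7 opened at stage 4tt, and the mean r of the profiles was -0.01. CTEL_peak_5193 had 320 and 314 in the gastrula, against 634 and 735 in the 64-cell embryo (-1.10 ± 0.13, adjusted p = 3.80e-06).

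**Figure D5:**
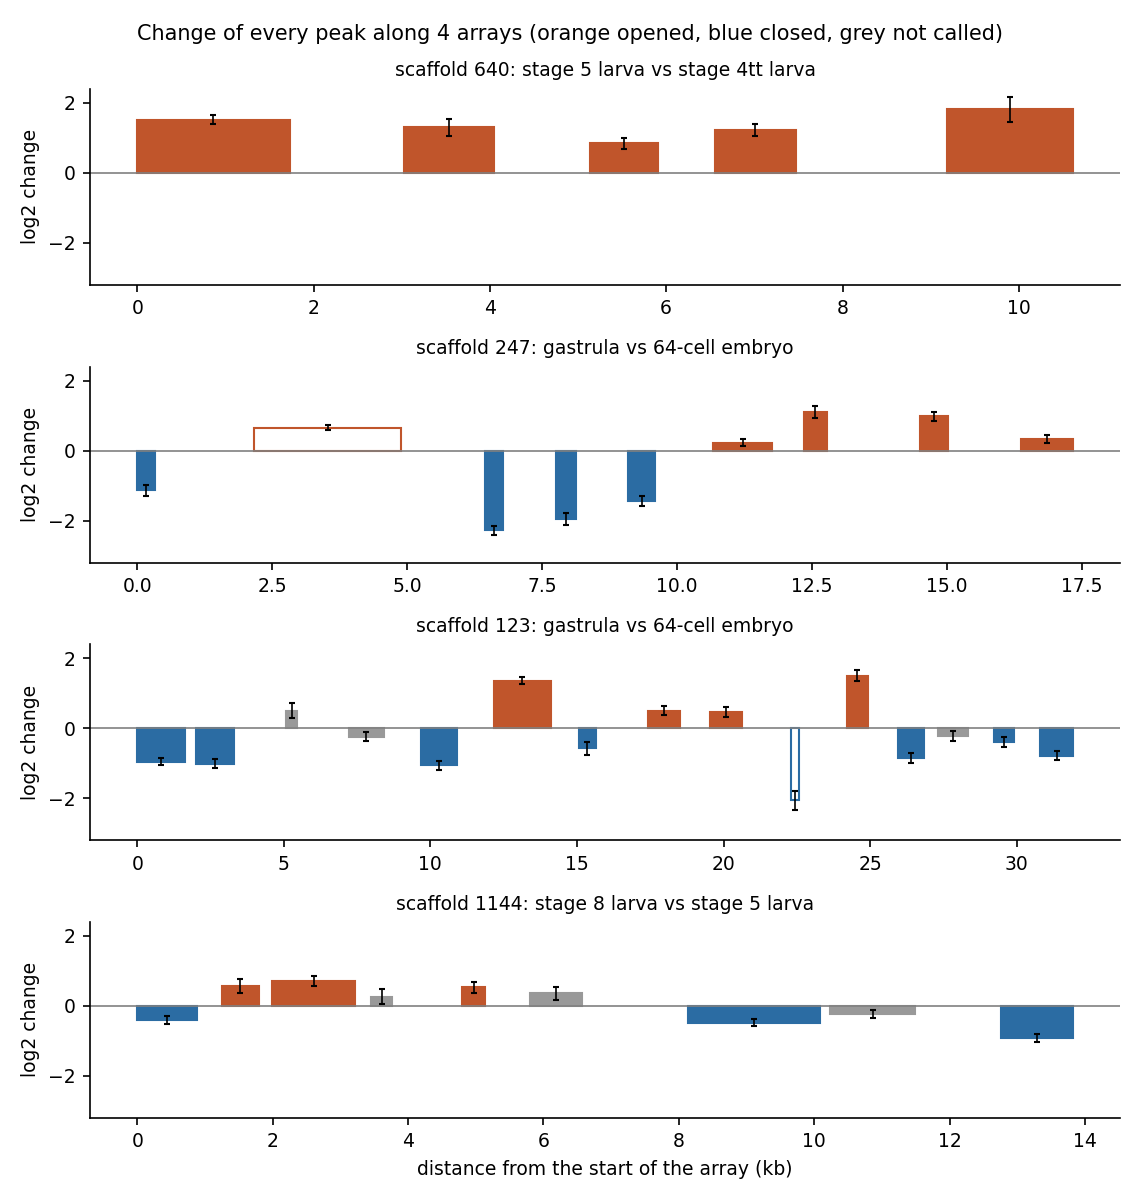
Log2 change (bars, with the SE from the limma fit) of every peak along 4 arrays at 1 step each, against the distance from the array's start in kb; orange opened, blue closed, grey not called, and open bars are peaks outside the width limits. On scaffold 640 all 5 array peaks opened, and on scaffold 247 the first 4 array peaks closed and the last 4 opened.

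Presence in the peak lists gave a different picture of neighbours. A peak was counted as present at a stage where both libraries called it. In 1354 adjacent pairs of array peaks both were present at some stages and absent at others, and 8.86% of these had the same pattern over the 5 stages, against 8.76% over all pairs of such array peaks. In runs of 2 to 4 peaks the figures were 16.4% for neighbours and 10.8% for all pairs, and for neighbours over 10000 bp apart 17.2% and 13.5%. Array neighbours thus did not stand above their background by this measure. In signal, those both called shared the direction more often than all pairs of called array peaks, as given above. The lists were called in each library alone against local background, and whether this bears on the difference was not tested.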

How the data were processed

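Reads were trimmed (cutadapt), mapped as pairs (NextGenMap), freed of duplicates (SAMtools) and shifted to correct for the transposase (deepTools) by the authors, who then ran MACS2 2.2.7.1 on every library by itself. The build used for this mapping is not given in the sources used here, and for gene annotation the study took the Ensembl Metazoa assembly. Peaks that were reproducible and outside repeats were merged by DiffBind into the consensus set and normalized with DESeq2. In the deposited table, each consensus peak has a normalized signal for every library and a width in bp. The deposited peak lists hold a fold enrichment (ratio) and a −log10 q-value per peak, at least 2.00 in every list. Starts are given counted from 1. The deposited width, used for the limits, is end minus start plus 1 with the start counted from 0.

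The signal came out as whole reads times a factor: within 0.1 reads, 99.99% of values from 1 to 50 reads and 71.4% of all values above 0 were whole. Recovered reads served for depth and for edgeR 4.0.16 and DESeq2 1.42.0, alternatives chosen after seeing the data. Log2(value + 1) of all 10 libraries was fitted with limma 3.58.1 (trend, robust; R 4.3.3), with no covariate. Two-sided p-values received Benjamini-Hochberg adjustment over 46409 peaks. They rest on the spread between libraries of the same stage, pooled over all stages in one fit. Each peak therefore has the same SE at every step. Neither this SE nor the p-value measures the spread within the 2 stages compared alone. Fold changes on this scale understate those of weak peaks. Peaks were intersected with bedtools 2.31.1, and the fitting step was tested on simulated data.

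Named arrays were the 3 with the most array peaks, those fully opened or closed with the largest median change at each step, the most mixed at each step, and the highest and lowest mean r of profiles among arrays at or above the median profile SD. Where these held fewer than 3 array peaks, the same choice among arrays with 3 or more was added after values were seen. Within a named array at most the peaks with the highest, median and lowest log2 change were described, except CTEL_peak_4140 and CTEL_peak_16592. The members and lists were chosen with earlier results of these data known. Alternatives changed the pseudocount, filter, scaling, libraries, threshold, gap, run length, order of filters and kind of pair.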

Additional observations from a re-analysis of the deposited data

Results flagged for a closer look

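The peak lists held called regions that the consensus table does not contain. Inside the spans of the arrays, 440 called regions (median width 174 bp) lay outside every consensus peak. Of these, 362 were called in only 1 library and none in all 10. They occurred in 302 of the 644 arrays, with 31 to 96 calls per library. No library of this series lacks chromatin accessibility, so there is no control level to set them against.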

How the results depend on the processing

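Values below are in the order of the 4 steps. Numbers of changed array peaks (2262, 1377, 1968 and 1554) stayed within 1.5 times under the other pseudocount, filters, scalings, tools and library sets. They moved with an absolute log2 change of at least 1 (785, 179, 327 and 320), and with the definition of arrays: gaps up to 1000 bp (204, 137, 183 and 158), gaps up to 5000 bp (12441, 7357, 11100 and 7111), width limits applied before joining (1279, 757, 1128 and 862) and runs of 8 or more (360, 225, 306 and 291). Leaving out each library in turn, which for the halved stage assumes that the lone library varies like the others, gave 2069 to 2243, 957 to 1543, 1448 to 2084 and 1131 to 1692.

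The same-direction share of neighbours (71.3%, 77.4%, 65.4% and 88.1%) moved with most settings. Scalings gave 72.4%, 79.2% and 68.9% at the first 3 steps (TMM), 69.2%, 79.9%, 63.9% and 84.8% (quantile), and 75.9%, 80.9%, 70.8% and 89.4% (median centring). An absolute log2 change of at least 1 gave 82.5%, 75.0%, 80.0% and 100.0%. These shares rest on pairs among only 785, 179, 327 and 320 called array peaks, and the numbers of pairs are not given here. Gaps up to 1000 bp gave 75.5%, 84.8%, 62.8% and 85.3%, and runs of 8 or more 72.4%, 85.2%, 59.3% and 88.0%. All pairs of an array gave 64.3%, 72.3%, 63.6% and 84.2%. Over all adjacent pairs by sign, called or not, it was 63.3%, 62.7%, 58.7% and 67.4%, and with the neighbours taken from different replicates 62.5%, 60.9%, 57.8% and 66.9%. Fitting only the 2 stages gave 74.0% at the first step and 82.0% at the last. Fitting only libraries of one sequencing set gave 72.7%, 80.2% and, at the last step, 82.0%, and can give no value from stage 4tt to stage 5. Gaps up to 5000 bp gave 69.3% and 82.8% at the last 2 steps, and width limits before joining 80.2%, 67.6% and 87.8% at the last 3. DESeq2 on recovered reads gave 72.3% at the first step and 86.3% at the last, and edgeR 74.9% at the second and 84.8% at the last. At the last step a pseudocount of 10 gave 88.0% and a mean value of at least 50 gave 87.1%. Leaving out each library gave 71.4% to 74.4%, 75.2% to 81.8%, 65.4% to 70.5% and 85.3% to 93.6%. The cause of these shifts was not tested. Neighbours exceeded all pairs of called peaks under each setting for which this was computed, by 16.8 to 32.6, 24.9 to 31.8, 13.7 to 29.9 and 28.5 to 35.1 points.

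With the replicate number as a replicate block, 2263, 1372, 1962 and 1545 array peaks changed, and the same-direction share was 75.7% at the second step and 87.7% at the last. The numbers do not pair the libraries, since deviations of same-numbered libraries correlated with r of -0.053 to 0.031. Depth limits weak array peaks, and with 2 libraries a stage the spread rests on few values.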
